A study of Mus musculus with 9 samples.

Results

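Malat1, Neat1, Rpph1, Rmrp, Terc, Gas5 and Snhg1 are 7 noncoding RNA genes, taken by symbol from the 22609 genes in the count tables of 4T1 tumors. They were listed as abundant noncoding RNAs with earlier results of these data in view, so their differences between groups are given as a description, with no p-value. All 7 passed the filter on low counts, which left 13366 genes tested. By CPM, counts scaled to library size with TMM factors, Malat1 ranked 1 among the tested genes, Rpph1 ranked 2, Rmrp 4 and Neat1 44. Gas5 ranked 2175, Snhg1 6016 and Terc 7911, so the name "abundant" held for the first 4 only.

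The tumors grew from 4T1 cells, a mouse mammary carcinoma line labelled as triple-negative breast cancer (TNBC), placed in the mammary fat pad of host mice (strain BALB/c) that had eaten their diet for 6 weeks and stayed on it. LFD hosts ate 10% of their calories as fat and received vehicle, 0.3% hydroxy propyl cellulose. HFD hosts ate 60% of calories as fat and received the same vehicle, and HFD + EC359 hosts ate the 60% diet and received EC359, an inhibitor of the LIF receptor LIFR, at 5 mg/kg intraperitoneally on 5 days per week. Each group had 3 libraries, prepared by a stranded mRNA protocol and read as 150 bp pairs. The labels used here give no age or sex of these hosts and do not say whether replicates came from separate mice, so p-values measure only the spread between these libraries. A tumor holds injected cells and host cells, and in bulk RNA fewer cells of a type and less RNA per cell cannot be told apart.

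Noncoding RNAs of these kinds work as RNA. Malat1 collects in nuclear speckles, where splicing factors are stored, and Neat1 is the scaffold of paraspeckles. Rpph1 is the catalytic RNA of RNase P, which trims the 5′ ends of tRNA precursors and also cuts the Malat1 transcript to form its 3′ end. Rmrp is the RNA of RNase MRP, a related enzyme that cuts ribosomal RNA precursors, and Terc is the template RNA of telomerase. Gas5 and Snhg1 are spliced host genes whose introns carry small nucleolar RNAs (snoRNAs), and their spliced RNAs are broken down by nonsense-mediated decay. Rpph1 and Rmrp are made by RNA polymerase III and carry no poly(A) tail, and the mature 3′ end of Malat1 is a folded structure without an added tail.

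The first 300 bases of Rpph1 and the whole of Rmrp are shown because their values moved in opposite directions although both belong to one RNA family. They were read from the mm9 genome, both from the minus strand, at chr14:51427147-51427446 and chr4:43505657-43505931. Capitals mark GGAANGTC, found at bases 64 to 71 of Rpph1 and 68 to 75 of Rmrp.
Rpph1: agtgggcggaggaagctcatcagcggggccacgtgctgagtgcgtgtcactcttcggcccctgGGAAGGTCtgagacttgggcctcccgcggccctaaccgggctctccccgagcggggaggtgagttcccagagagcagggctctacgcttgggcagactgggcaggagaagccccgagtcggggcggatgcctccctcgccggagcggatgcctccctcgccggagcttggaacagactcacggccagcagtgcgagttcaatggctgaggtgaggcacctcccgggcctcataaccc
Rmrp: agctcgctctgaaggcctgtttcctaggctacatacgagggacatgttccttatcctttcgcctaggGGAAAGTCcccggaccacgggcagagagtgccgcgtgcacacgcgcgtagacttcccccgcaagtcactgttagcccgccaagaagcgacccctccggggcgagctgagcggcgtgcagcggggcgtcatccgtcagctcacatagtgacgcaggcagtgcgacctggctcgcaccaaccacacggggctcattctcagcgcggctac
Searched on the RNA strand, the same letters were in 13 of 874 listed genes of at most 400 exon bases (1.49%). Rpph1 has 325 bases (chr14:51427122-51427446) with 66.8% GC, and Rmrp 275 bases with 63.6% GC. Rpph1 also carries an exact repeat of 21 bases, starting at bases 186 and 207.

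The ends of the 2 genes are shown with 12 bases of flank, because a run of T in the DNA is the stop signal of RNA polymerase III. Capitals mark the run, of 6 T after Rpph1 (chr14:51427110-51427133) and of 4 T after Rmrp (chr4:43505645-43505668), mm9 minus strand.
Rpph1 3′ end: ctcccccgccctcTTTTTTgatcg
Rmrp 3′ end: cagcgcggctacacTTTTatttat

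Terc, a single exon of 397 bases with 66.8% GC at chr3:96218360-96218756 on the minus strand, is shown by its first 40 bases (chr3:96218717-96218756), because they hold the template that telomerase copies into telomere repeats. Capitals mark CTAACCC at bases 3 to 9, letters that 7 of the 874 short genes held (0.801%).
Terc: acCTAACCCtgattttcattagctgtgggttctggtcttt

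Malat1 is a single exon of 6982 bases with 42.5% GC at chr19:5795690-5802671 on the minus strand. A stretch near its 3′ end (chr19:5795978-5796072) is shown because it replaces a poly(A) tail: 2 U-rich motifs fold around an A-rich tract into a triple helix. Capitals mark these, from base 6605 to base 6684, the tract being 12 A. Neat1 lies 39630 bases away on the same strand, and its counted model of 3177 bases with 51.3% GC (chr19:5842302-5845478) ends after AATAAA, a polyadenylation signal 19 bases before the last base. The last 40 bases (chr19:5842302-5842341) are shown because that signal ends the short form of Neat1.
Malat1: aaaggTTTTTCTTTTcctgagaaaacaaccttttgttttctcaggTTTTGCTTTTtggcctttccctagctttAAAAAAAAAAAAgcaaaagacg
Neat1: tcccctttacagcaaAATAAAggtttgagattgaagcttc
In GENCODE M1, on the same build, Neat1 spans 20771 bases (chr19:5824708-5845478), so the counts hold reads of the shared 5′ part and do not separate the short from the long form.

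Gas5 (4 exons, 2554 bases, 42.4% GC, chr1:162965297-162968668) and Snhg1 (10 exons, 476 bases, 42.9% GC, chr19:8797977-8800816) are on the plus strand. Bases -20 to 20 around the annotated first base are shown because genes of this class often start with a pyrimidine run, the 5′ terminal oligopyrimidine (TOP) tract of growth-regulated RNAs. Capitals mark the run from the first base, of 5 bases in Gas5 (chr1:162965277-162965316) and of 3 in Snhg1 (chr19:8797957-8797996).
Gas5: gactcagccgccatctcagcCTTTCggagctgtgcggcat
Snhg1: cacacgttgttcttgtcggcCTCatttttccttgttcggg
A C followed by 4 pyrimidines stood at the first base of 823 of 32851 RefSeq promoter windows of the later build GRCm38.p6 (2.51%). The gene spans also overlap Mir5117 and Snord47 (Gas5) and Snord22 (Snhg1), and the authors split reads over overlapping genes into fractions.

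Library totals ran from 5085357 to 9751201 counts, lowest in LFD and highest in HFD + EC359. LFD replicate 1 stood apart: the mean chi-square per gene, about 1 for sampling alone, was 3.00 and 2.46 against the other LFD libraries and 1.36 to 1.57 for the other pairs within groups. Krt8 and Krt18, keratins of epithelial tumor cells, ran at 408 ± 5.34 to 599 ± 13.7 CPM and 292 ± 7.40 to 485 ± 11.4 CPM (group mean ± SD, n = 3), and the epithelial adhesion gene Cdh1 at 28.4, 5.90 and 19.9 CPM in LFD, HFD and HFD + EC359. Of the receptors that TNBC is defined as lacking, Erbb2 was read at 74.8 to 107 CPM and Esr1 at 6.80 to 12.6 CPM as group means. The GC content of genes moved with the groups. Mean log2 CPM of the 3342 tested genes with at most 45.8% GC, minus that of the 3342 with at least 55.4%, centred on all libraries, was -0.536, -0.317 and -0.364 in LFD, 0.105, 0.127 and 0.156 in HFD, and 0.275, 0.254 and 0.302 in HFD + EC359. Each difference of the 7 RNAs, and of the other genes where it alters the account, is therefore also given after GC and length correction, in which the trend of log2 CPM on both was taken out of each library.

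Together the 7 RNAs took 2.93% ± 0.0431 of the counts in LFD, 2.98% ± 0.0644 in HFD and 3.10% ± 0.0227 in HFD + EC359 (SD, n = 3). Malat1, Rpph1 and Rmrp made up nearly all of it, 2.75% to 3.00% of each library. Per length, as TMM-scaled counts per kilobase and scaled library (FPKM), Rpph1 was highest at a mean of 29040.1 over the 9 libraries, and Rmrp next at 17471. These ranked 1 and 2 among the tested genes, and Malat1 ranked 8 at 2069 FPKM. Neat1 followed at 361 FPKM, Snhg1 at 77.7, Terc at 54.7 and Gas5 at 45.4. The libraries of Snhg1 and Terc overlapped in LFD, and those of Terc and Gas5 in HFD + EC359, so those neighbours in the order did not differ beyond their spread there. How far fragment length limits the counting of RNAs under 400 bases was not modelled.

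**Figure D1:**
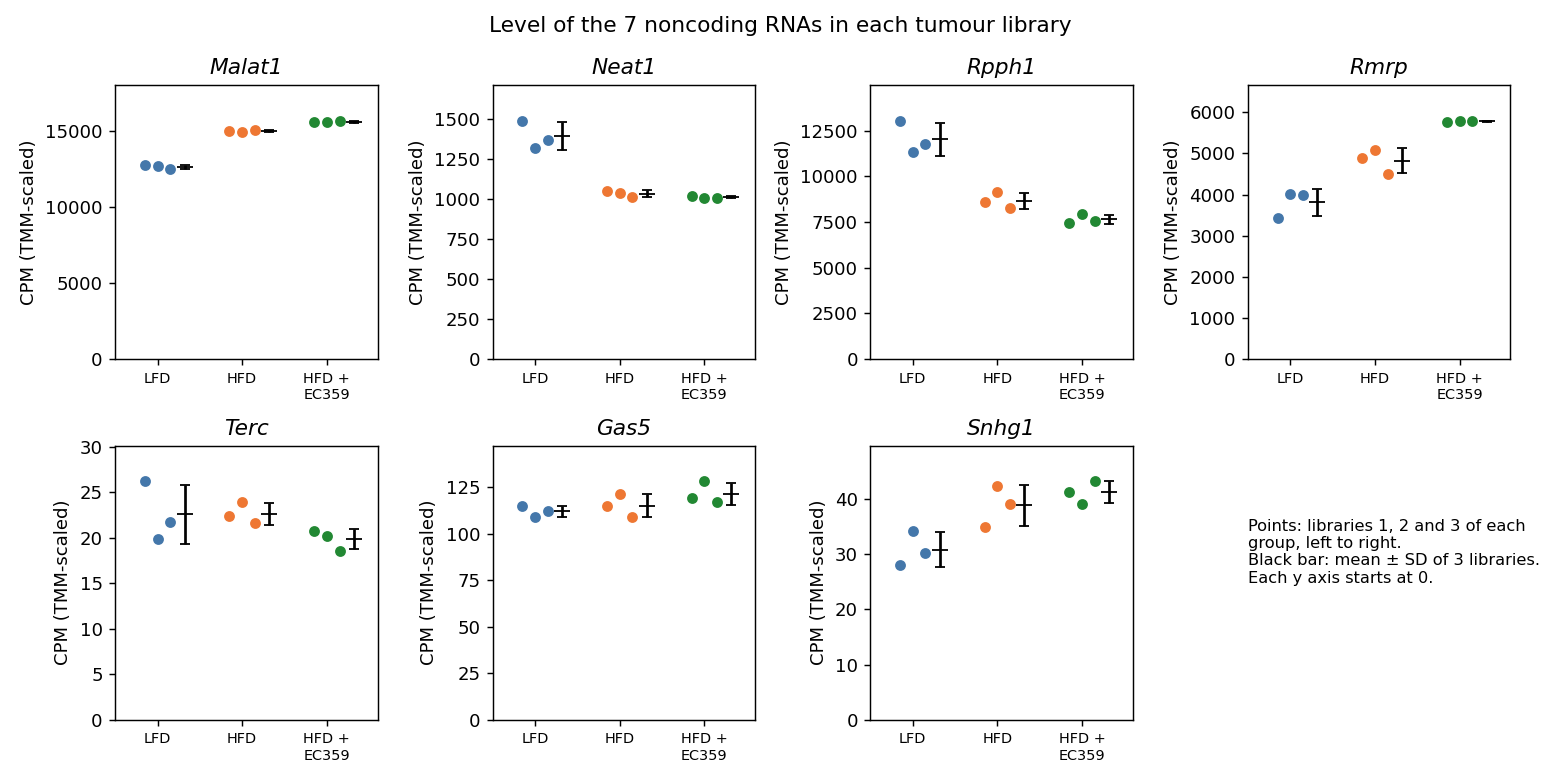
CPM (TMM-scaled) of each RNA in the 9 libraries, 1 panel per RNA, with points for libraries and black bars for the mean ± SD of 3 libraries. Rmrp steps up from LFD to HFD to HFD + EC359, as does Malat1 before GC and length correction, Rpph1 steps down, Neat1 is high in LFD alone, and Terc overlaps between LFD and each other group.

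The groups were compared in 3 ways, HFD against LFD for the diet, HFD + EC359 against HFD for the drug, and HFD + EC359 against LFD for both. None of the 7 RNAs passed a fold change over 2 with an adjusted p under 0.01 in any of them by edgeR's quasi-likelihood test, where 5.71%, 3.43% and 5.09% of all tested genes did. With DESeq2, or at an unadjusted p under 0.05 with that fold change, the count was also 0 of 7. With no limit on fold change, an adjusted p under 0.05 called 5, 3 and 5 of the 7, against 51.8%, 26.6% and 58.3% of all tested genes. By direction these were 3 higher and 2 lower, 2 higher and 1 lower, and 3 higher and 2 lower, against 26.0% and 25.8%, 12.7% and 13.9%, and 29.2% and 29.1% of all tested genes. The libraries of the groups did not overlap for 5, 4 and 6 of the 7, against 57.1%, 41.3% and 62.9% of all tested genes. Nothing is read from these counts, since the members were chosen on the same values. Their median log2 fold changes were 0.043, 0.058 and 0.117, beside 0.007, 0.006 and 0.011 over all tested genes. After GC and length correction they were -0.084, -0.053 and -0.143, beside -0.004, -0.024 and -0.024 over all tested genes. With that correction, an adjusted p under 0.05 called 2697 of all tested genes higher and 3046 lower for HFD against LFD. The corrected counts were 1371 and 2128 for HFD + EC359 against HFD, and 2842 and 3733 for HFD + EC359 against LFD. Each leaned lower, so a list that leans lower after the correction may share this lean. The comparisons share libraries, so values for the same RNA in them are not independent.

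Rpph1 was lower on the high-fat diet and lower again with EC359. Its level was 13041, 11307 and 11753 CPM in the 3 LFD libraries, 8577, 9113 and 8241 CPM in HFD, and 7426, 7934 and 7551 CPM in HFD + EC359. All LFD libraries lay above all HFD libraries, and these above all HFD + EC359 libraries. The log2 fold change was -0.48 ± 0.0361 (SE) for HFD against LFD, a level 28.2% lower. It was -0.18 ± 0.0361 for HFD + EC359 against HFD and -0.66 ± 0.0362 for HFD + EC359 against LFD. At 66.8% GC, Rpph1 was richer in GC than the mean of the top 1 of 20 bins of tested genes, at 62.6%, whose median log2 fold change was -0.302 for HFD against LFD. After GC and length correction, the Rpph1 values came to -0.25, -0.086 and -0.34. Without LFD replicate 1, the highest library of Rpph1, the comparisons with LFD gave -0.416 and -0.595 as counted.

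Rpph1 has a copy in the tables that was read as well. Of the 3 Rpph1-like genes, Rprl3 was 86.4% identical over 257 aligned bases, Rprl2 85.7% over 259 and Rprl1 83.8% over 259. Rprl1 had no count in any library, and Rprl2 averaged at most 0.0751 CPM in a group. Rprl3 was read at 899.9, 781 and 737 CPM in LFD, 548, 595 and 522 CPM in HFD, and 386, 505 and 436 CPM in HFD + EC359. It fell in each comparison, by 0.54, 0.33 and 0.86 on the log2 scale (adjusted p = 9.98e-09, 0.000123 and 1.51e-13), or by 0.32, 0.22 and 0.54 after GC and length correction. Within a library, the counts of Rprl3 were 0.0519 to 0.0691 of those of Rpph1. The authors counted reads with several alignments in fractions, so reads of Rpph1 and Rprl3 cannot be told apart fully, and the values of both are uncertain in this respect.

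Rmrp moved the other way, in steps of the same order. It was read at 3437, 4010.1 and 3984 CPM in LFD, at 4882, 5091 and 4507 CPM in HFD, and at 5755, 5778 and 5795 CPM in HFD + EC359. No group overlapped another, and the HFD + EC359 libraries were the closest to each other. Its log2 fold change was 0.34 ± 0.0393 (SE) for HFD against LFD, 0.26 ± 0.0390 for HFD + EC359 against HFD and 0.60 ± 0.0393 for HFD + EC359 against LFD, the last a level 51.5% higher. Rmrp was higher although genes of like GC content were mostly lower, and after GC and length correction its values grew to 0.52, 0.32 and 0.85. Without LFD replicate 1, its lowest library, the comparisons with LFD gave 0.27 and 0.53.

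The count of Rpph1 over that of Rmrp, free of any scaling between libraries, gives Rpph1 relative to Rmrp and not the level of either RNA. It was 3.79, 2.82 and 2.95 in LFD, 1.76, 1.79 and 1.83 in HFD, and 1.29, 1.37 and 1.30 in HFD + EC359. The means were 3.19 ± 0.529, 1.79 ± 0.0359 and 1.32 ± 0.0445 (SD, n = 3), with no overlap between groups. Leaving out LFD replicate 1, the LFD ratios were 2.82 and 2.95, still above every HFD library. As a log2 difference between groups, the ratio gave -0.82, -0.44 and -1.26 in the 3 comparisons and -0.78, -0.41 and -1.18 after GC and length correction.

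**Figure D2:**
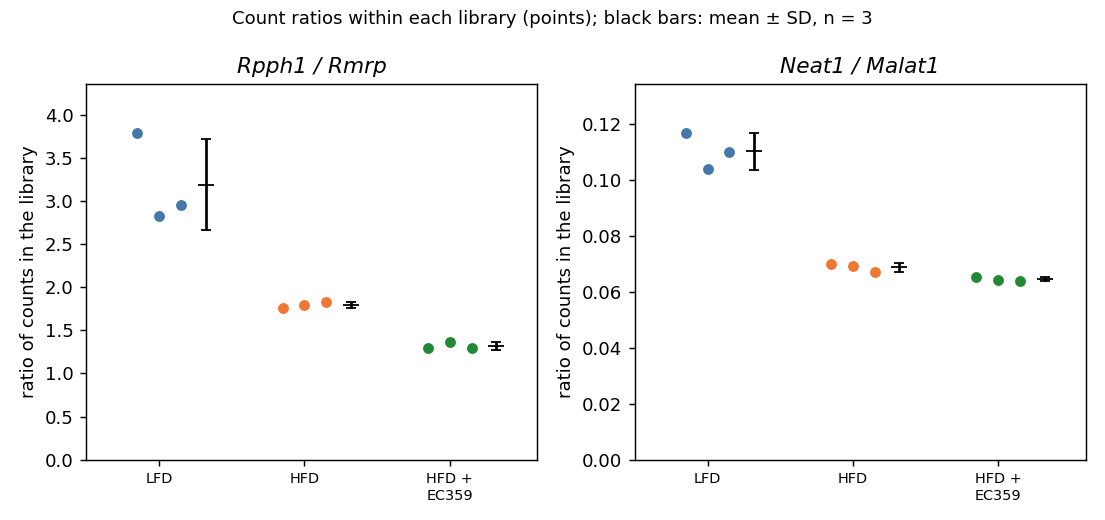
Counts of Rpph1 over Rmrp (left) and of Neat1 over Malat1 (right) within each library, with points for libraries and black bars for the mean ± SD of 3 libraries. The left ratio drops at each step from 3.19 to 1.79 to 1.32, and the right ratio drops from 0.110 in LFD to 0.0688 in HFD and lies at 0.0647 in HFD + EC359. Both are as counted, and the log2 difference of the right ratio with the diet was -0.68, or -0.32 after GC and length correction.

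The listed proteins of RNase P and RNase MRP were read at low levels, 133 to 151 CPM in sum over 11 genes in LFD, 132 to 141 in HFD and 135 to 139 in HFD + EC359. Of the 10 tested, 1 fell and none rose for HFD against LFD, none passed for HFD + EC359 against HFD (0 with DESeq2, 2 at an unadjusted p under 0.05), and 3 rose and 1 fell for HFD + EC359 against LFD. The 1 that fell was Rpp25l (2810432D09Rik in the tables), a subunit that binds the RNAs, by 0.44 and 0.61 on the log2 scale in the comparisons with LFD (adjusted p = 0.00112 and 1.67e-05). Corrected, these were -0.195 and -0.38, and the first no longer passed (adjusted p = 0.147). The 3 that rose were Rpp30, Rpp38 and Rpp40, by 0.44, 0.82 and 1.0 (adjusted p = 0.0306, 0.00113 and 0.00463), named after their values were seen, giving -0.087, 0.57 and 0.75 after GC and length correction, so that Rpp30 turned. Pop1, the largest subunit, gave -0.14 ± 0.0797 and 0.099 ± 0.0745 for the diet and drug comparisons and passed in neither. The RNA polymerase III machinery, 26 genes tested, had 5 higher and 9 lower for HFD against LFD, then 1 and 2 for HFD + EC359 against HFD, and 5 and 9 for HFD + EC359 against LFD. The 3 calls for EC359 were 0 with DESeq2. Among the calls, Gtf3c1 and Gtf3c4, subunits of the factor TFIIIC that recognises tRNA promoters, fell by 0.15 and 0.19 on HFD against LFD (adjusted p = 0.00529 and 0.00182). After GC and length correction these were -0.031 and -0.30. Gtf3c3, Gtf3c5 and Gtf3c6 of the same factor rose by 0.49, 0.22 and 0.64 (adjusted p = 0.000116, 0.0474 and 0.0037), named after their values were seen. Corrected, they gave 0.24, 0.33 and 0.58, so TFIIIC is given no direction. Of the other calls, named after their values were seen, Maf1 gave -0.595 and -0.707 against LFD (adjusted p = 2e-10 and 1.69e-12). After GC and length correction these were -0.398 and -0.511. For HFD against LFD, Snapc2, Snapc3 and Snapc4 gave -0.444, -0.316 and -0.127, or -0.191, -0.414 and 0.025 corrected. Brf2 gave -0.407 and Snapc5 0.91 for HFD + EC359 against LFD, or -0.21 and 0.608 corrected.

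Other short RNAs without a poly(A) tail were read in the same libraries, and values for them stand beside those of Rpph1, Rmrp and Terc, since the mRNA protocol selects RNA with a tail. Of 114 snoRNA and scaRNA genes found by symbol, 85 were tested. They had 8 higher and 12 lower for HFD against LFD, then 2 and 4 for HFD + EC359 against HFD, and 12 and 20 for HFD + EC359 against LFD, with medians of -0.094, -0.006 and -0.083 beside 0.007, 0.006 and 0.011 over all genes. Their summed level was 1177 to 1367 CPM in LFD, 840.4 to 925 in HFD and 780.5 to 815 in HFD + EC359. Scarna2, a guide RNA of Cajal bodies, made up the largest share, at 802, 641 and 657 CPM in LFD, 435, 436 and 377 CPM in HFD, and 345, 336 and 311 CPM in HFD + EC359. It fell by 0.75, 0.33 and 1.08 on the log2 scale (adjusted p = 1.15e-12, 3.70e-05 and 1.09e-16), or by 0.45, 0.22 and 0.67 after GC and length correction. Snord17 also fell in each comparison, by 0.45, 0.34 and 0.79 (adjusted p = 0.000111, 0.0058 and 8.08e-09), with little difference after that correction (-0.47, -0.42 and -0.90). Scarna13 did not follow them with the diet, at -0.029 (adjusted p = 0.743), and fell by 0.185 and 0.21 in the comparisons of HFD + EC359 with HFD and LFD (adjusted p = 0.03 and 0.00705). Clustered histone mRNAs, which end in a stem-loop, summed to 7309 to 7599 CPM in LFD, 7374 to 7497 in HFD and 6616 to 6664 in HFD + EC359. Of 63 tested, 27 were higher and 15 lower for HFD against LFD, then 3 and 25, and 22 and 23. Past the fold threshold were 15, 0 and 17, where 5.71%, 3.43% and 5.09% of all tested genes passed. The histone medians were 0.098, -0.102 and -0.109. After GC and length correction the histone counts were 38 and 10, 3 and 24, and 27 and 16, with medians of 0.304, -0.102 and 0.162. The part that tail selection plays in the values of Rpph1 and Rmrp was not tested.

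**Figure D3:**
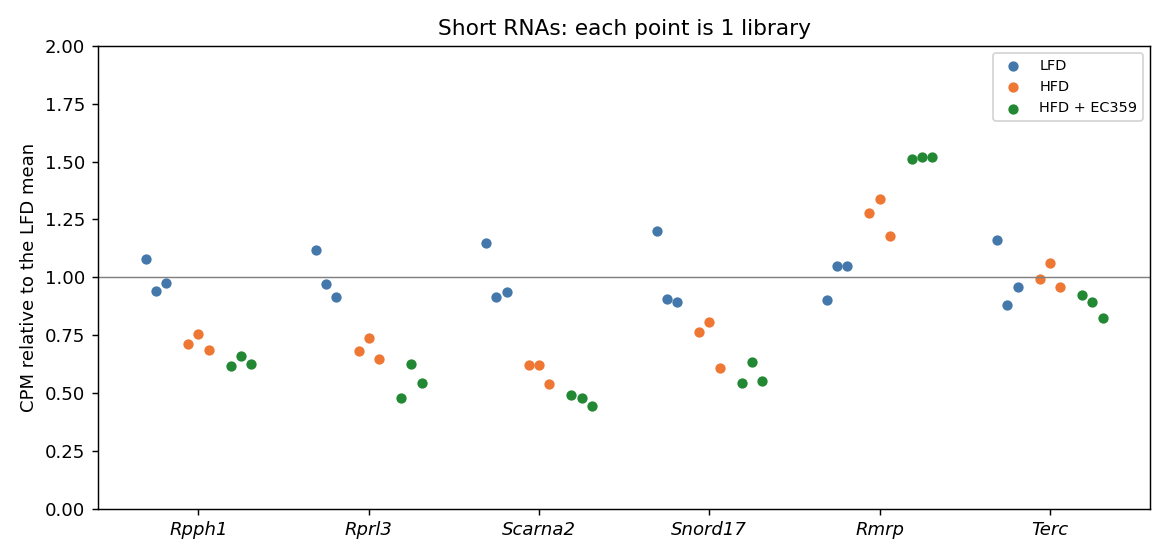
CPM of 6 short RNAs in each library, divided by the mean of that RNA in the 3 LFD libraries; each point is 1 library. Rpph1, Rprl3, Scarna2 and Snord17 lie below 1 in every HFD and HFD + EC359 library, Rmrp lies above 1 in all of them, and Terc lies on both sides of 1 in HFD. Reads of Rpph1 and Rprl3 cannot be told apart fully. Scarna13, not shown, gave -0.029 on the log2 scale for HFD against LFD. Of 85 snoRNA and scaRNA genes tested, 8 were higher and 12 lower in that comparison.

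As counted, Terc did not differ between LFD and HFD beyond the spread of its libraries. It was read at 26.2, 19.9 and 21.7 CPM in LFD, 22.4, 23.9 and 21.6 CPM in HFD, and 20.8, 20.2 and 18.6 CPM in HFD + EC359, from 123 to 186 counts per library. The LFD libraries spanned all HFD libraries and 2 of the 3 HFD + EC359 libraries, while every HFD + EC359 library was below every HFD library. The log2 fold changes were 0.020 ± 0.109 (SE), -0.20 ± 0.102 and -0.18 ± 0.109 in the 3 comparisons, in the order given above. After GC and length correction they were 0.26 ± 0.106, -0.11 ± 0.0995 and 0.15 ± 0.106. As counted without LFD replicate 1, the first was 0.13 and the last -0.067, so Terc is given no direction against LFD.

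Telomerase proteins moved in both directions. Of 8 tested, 3 rose and 2 fell for HFD against LFD, 1 rose for HFD + EC359 against HFD, and 3 rose and 3 fell for HFD + EC359 against LFD. With the GC and length correction, 1 was higher and 1 lower in the first and 2 and 2 in the last. Nop10, one of the H/ACA proteins that bind Terc and snoRNAs alike, was read at 3.27, 5.80 and 5.11 CPM in LFD, 11.5, 13.2 and 12.7 in HFD, and 17.2, 17.6 and 17.6 in HFD + EC359. It rose in each comparison, by a log2 fold change of 1.36, 0.49 and 1.85 (adjusted p = 8.29e-08, 0.00237 and 1.24e-11), or 1.20, 0.33 and 1.54 after GC and length correction. Dkc1, the pseudouridine synthase of that complex, rose by 0.24 for HFD against LFD (adjusted p = 0.00551), a value that was -0.007 after GC and length correction. Of 7 shelterin genes, which cap telomeres, 2 rose and 2 fell for HFD against LFD, none passed for HFD + EC359 against HFD (0 with DESeq2, 0 at an unadjusted p under 0.05), and 2 rose and 3 fell for HFD + EC359 against LFD. Pot1b, which binds the single-stranded end, rose by 0.79 and 1.06 in the comparisons with LFD (adjusted p = 0.00152 and 1.53e-05), and Tinf2, the central linker, fell by 0.57 and 0.63 (adjusted p = 8.35e-06 and 8.20e-07). With the correction, Pot1b gave 0.58 and 0.79 and Tinf2 -0.46 and -0.55.

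Malat1 had the highest mean CPM of all tested genes and, as counted, was higher on the high-fat diet, a direction that GC and length correction turned. It was read at 12774, 12734 and 12501 CPM in LFD, 14999, 14967 and 15106 CPM in HFD, and 15592, 15621 and 15705 CPM in HFD + EC359, from 62513 to 157254 counts per library. The groups did not overlap. The log2 fold changes were 0.25 ± 0.022 (SE), 0.058 ± 0.022 and 0.30 ± 0.022, or 18.6%, 4.1% and 23.4% higher. These differences were of the size seen in other genes of the same GC content: the 668 tested genes of the bin at a mean of 42.9% GC had medians of 0.261, 0.068 and 0.353. After GC and length correction, Malat1 gave -0.084, -0.010 and -0.094, with the sign turned in every comparison.

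**Figure D4:**
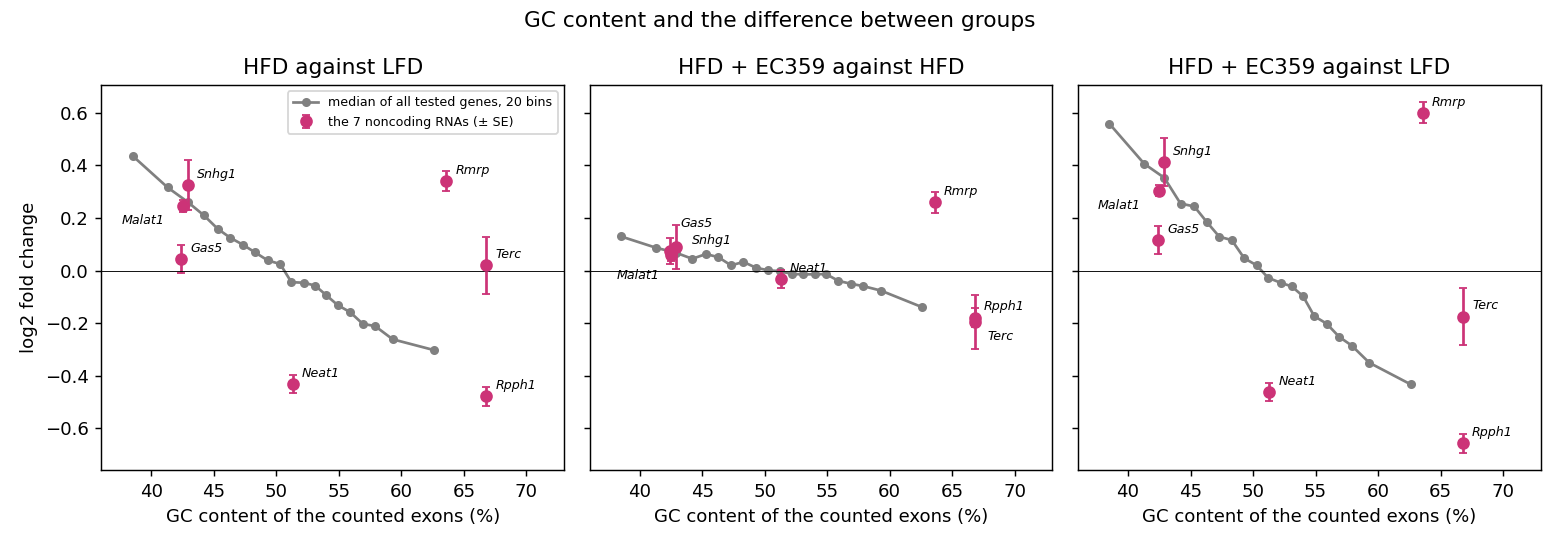
Log2 fold change of the 7 RNAs (± SE) against the GC content of their counted exons in percent, 1 panel per comparison, over the median of all tested genes in 20 bins of GC content (grey line). Malat1 and Snhg1 lie close to the grey line in each panel, while Rmrp lies above it, and Neat1 lies below it in the comparisons with LFD.

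Neat1 was lower in both high-fat groups than on the low-fat diet. It was read at 1489, 1319.7 and 1371 CPM in LFD, 1051, 1037 and 1013 CPM in HFD, and 1021, 1007 and 1006 CPM in HFD + EC359. Every LFD library lay above all others, while HFD and HFD + EC359 overlapped. The log2 fold change was -0.43 ± 0.0343 (SE) for HFD against LFD, a level 25.8% lower, and -0.46 ± 0.0342 for HFD + EC359 against LFD. For HFD + EC359 against HFD it was -0.032 ± 0.0341. Neat1 has a GC content near the middle of all genes, and its values after GC and length correction were -0.40, -0.053 and -0.46. Without LFD replicate 1, the highest library of Neat1, the comparisons with LFD gave -0.38 and -0.413 as counted. Relative to Malat1 in the same library, Neat1 counts were 0.117, 0.104 and 0.110 in LFD, 0.0701, 0.0693 and 0.0670 in HFD, and 0.0655, 0.0644 and 0.0641 in HFD + EC359, with no overlap between groups. Malat1, the denominator, was itself higher as counted, and as a log2 difference the ratio gave -0.68, -0.090 and -0.765 in the 3 comparisons, and -0.32, -0.043 and -0.36 after GC and length correction.

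Proteins of the bodies that these 2 RNAs occupy were less uniform. Of 15 paraspeckle proteins, 7 rose and 1 fell for HFD against LFD, none rose and 2 fell for HFD + EC359 against HFD, and 6 rose and 2 fell for HFD + EC359 against LFD. The 1 that fell with the diet was Sfpq, a core paraspeckle protein, by 0.26, 0.11 and 0.37 in the 3 comparisons (adjusted p = 6.96e-07, 0.0242 and 3.58e-10). Smarca4, the ATPase of the SWI/SNF complex that paraspeckles hold, rose by 0.21 and 0.14 against LFD (adjusted p = 2.04e-05 and 0.00208). Of 20 nuclear speckle and SR proteins, 8 rose and 5 fell for HFD against LFD, then 2 and 4 for HFD + EC359 against HFD, and 9 and 8 for HFD + EC359 against LFD. Srrm2, the large scaffold of speckles, rose by 0.32, 0.099 and 0.42 (adjusted p = 1.37e-10, 0.0107 and 1.27e-13), and the splicing factor Srsf2 fell by 0.26 and 0.35 in the comparisons with LFD (adjusted p = 2.57e-07 and 3.64e-10). After GC and length correction the values of these 4 genes against LFD were -0.28 and -0.415 for Sfpq, 0.345 and 0.32 for Smarca4, 0.315 and 0.43 for Srrm2, and -0.26 and -0.40 for Srsf2. The counts of the lists did not hold in the same way. Against LFD, paraspeckle proteins then had 6 higher and 5 lower for HFD, and 4 and 6 for HFD + EC359, and speckle proteins 3 and 9, and 2 and 13. All tested genes also leaned lower then, with 2697 higher and 3046 lower for HFD, and 2842 and 3733 for HFD + EC359. Of the calls as counted, 3 of 8 and 4 of 8 in the first list and 5 of 13 and 8 of 17 in the second turned sign. Cpsf6, Matr3 and Tardbp, the 3 paraspeckle proteins that turned with the diet, went from 0.21, 0.27 and 0.35 to -0.26, -0.18 and -0.007. The lists' medians, 0.157, -0.067 and 0.013 for paraspeckles and 0.087, -0.011 and 0.102 for speckles, lay beside 0.007, 0.006 and 0.011 over all genes. With the correction they became 0.033, -0.116 and -0.073, and -0.085, -0.086 and -0.212, beside -0.004, -0.024 and -0.024 over all genes.

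As counted, Gas5 was close to level across the groups and Snhg1 was higher in both high-fat groups, while after GC and length correction Gas5 was lower in both and Snhg1 was not higher. Gas5 was read at 115, 109 and 112 CPM in LFD, 115, 121 and 109 CPM in HFD, and 119, 128 and 117 CPM in HFD + EC359, and only HFD + EC359 and LFD did not overlap. Its log2 fold changes were 0.043 ± 0.0535 (SE), 0.075 ± 0.0496 and 0.12 ± 0.0522, and -0.25, -0.036 and -0.28 after GC and length correction. Snhg1 was read at 28.0, 34.2 and 30.3 CPM in LFD, 35.0, 42.4 and 39.2 CPM in HFD, and 41.3, 39.2 and 43.2 CPM in HFD + EC359. Every LFD library lay below all others, and HFD and HFD + EC359 overlapped. The log2 fold changes of Snhg1 were 0.33 ± 0.0946, 0.089 ± 0.0838 and 0.41 ± 0.0920, and -0.018, -0.13 and -0.14 after GC and length correction.

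Other snoRNA host genes had more members that fell than rose against LFD. Of 14 tested, 1 rose and 8 fell for HFD against LFD, and 1 rose and none fell for HFD + EC359 against HFD. None rose and 7 fell for HFD + EC359 against LFD. The shares over all tested genes were 26.0% and 25.8%, 12.7% and 13.9%, and 29.2% and 29.1%. Medians were -0.225, -0.064 and -0.163, beside 0.007, 0.006 and 0.011 over all tested genes. With the GC and length correction, the counts were 1 and 8, 0 and 2, and 0 and 10. Corrected calls over all tested genes leaned lower too, at 2697 and 3046, 1371 and 2128, and 2842 and 3733. The 1 that rose with EC359 was Snhg7, by 0.23 (adjusted p = 0.0304, named after its value was seen), a call that DESeq2 did not make, and 0.105 after GC and length correction, which did not pass. Snhg5 fell by 0.30 and 0.39 in the comparisons with LFD (adjusted p = 0.001 and 2.45e-05), or 0.44 and 0.66 after GC and length correction, and Zfas1 (1500012F01Rik) by 0.30 and 0.37 (adjusted p = 0.000909 and 3.70e-05), or by 0.097 and 0.24 after it. Snhg17 (9430008C03Rik) fell by 0.15 and 0.14 (adjusted p = 0.0171 and 0.0193). Of the 4 box C/D snoRNP proteins, 1 rose for HFD against LFD, none passed for HFD + EC359 against HFD (0 with DESeq2, 0 at an unadjusted p under 0.05), and 1 rose and 1 fell for HFD + EC359 against LFD. Nop56, a core protein of these particles, fell by 0.13 in the last (adjusted p = 0.0122). Of 10 nonsense-mediated decay factors, 4 rose and 4 fell for HFD against LFD, then 2 and 1 for HFD + EC359 against HFD, and 5 and 4 for HFD + EC359 against LFD. With the correction the counts against LFD were 3 and 1, and 4 and 2. The kinase Smg1 rose by 0.18 and the helicase Upf1 fell by 0.14 for HFD against LFD (adjusted p = 0.000167 and 0.00957), and after GC and length correction these were -0.11 and 0.067. Smg6, the endonuclease of this pathway, rose by 0.21 for HFD + EC359 against HFD (adjusted p = 0.000164), and by 0.22 after GC and length correction.

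**Figure D5:**
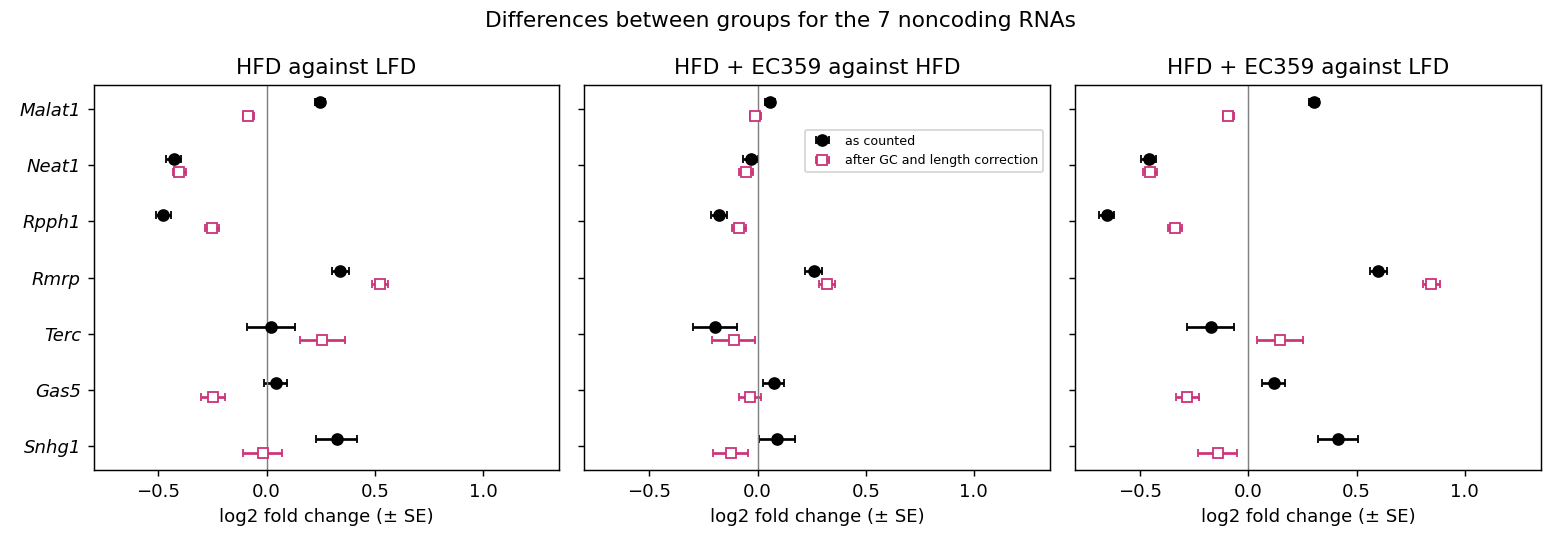
Log2 fold change (± SE) of each RNA in the 3 comparisons, as counted (black circles) and after GC and length correction within libraries (open squares). Rpph1 and Neat1 stay below 0 and Rmrp above 0 against LFD in both, while Malat1, Gas5 and Snhg1 change side in all 3 comparisons and Terc does in HFD + EC359 against LFD.

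Other long noncoding RNAs were read beside these. Of 16 tested, 8 rose and 3 fell for HFD against LFD, then 5 and 3 for HFD + EC359 against HFD, and 7 and 2 for HFD + EC359 against LFD. For HFD + EC359 against HFD, DESeq2 called 4 of them. After GC and length correction the counts were 4 and 5, 2 and 5, and 3 and 5, and the medians went from 0.341, 0.109 and 0.323 to -0.037, -0.046 and -0.069. Corrected calls over all tested genes leaned lower too, at 2697 and 3046, 1371 and 2128, and 2842 and 3733. Kcnq1ot1 and Tug1 turned with the diet, from 0.36 and 0.40 to -0.13 and -0.070. Meg3, an imprinted RNA, was read at 12.3, 15.5 and 13.2 CPM in LFD, 49.0, 48.7 and 47.6 CPM in HFD, and 12.4, 15.4 and 14.6 CPM in HFD + EC359. It rose by 1.81 with the diet and fell by 1.77 with EC359 (adjusted p = 1.70e-15 and 2.12e-16), a size that none of the 7 RNAs had. Rian, transcribed from the same imprinted locus, rose by 1.97 and fell by 1.79 (adjusted p = 3.18e-11 and 2.11e-11). The corrected values were 1.71 and -1.79 for Meg3 and 1.74 and -1.86 for Rian. Miat rose by 2.46 and fell by 1.5 at 0.281 to 1.70 CPM as group means (adjusted p = 0.000677 and 0.00935). Xist rose by 0.89 with the diet (adjusted p = 5.48e-18) and gave 0.094 ± 0.0383 with EC359, or 0.46 and -0.035 after GC and length correction.

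Genes next to the 7 RNAs were read as well. Between Neat1 and its neighbour Frmd8, on the same strand, lie 5495 bases, and Frmd8 fell by 0.42, 0.23 and 0.65 on the log2 scale (adjusted p = 6.41e-08, 0.0015 and 3.74e-12), or by 0.22, 0.196 and 0.42 after GC and length correction. Parp2, a DNA repair enzyme gene, starts 174 bases from Rpph1 on the opposite strand and rose by 0.26 for HFD against LFD (adjusted p = 0.0476), where Rpph1 was lower, a call lost after GC and length correction (0.16, adjusted p = 0.24). Ccdc107 starts 305 bases from Rmrp on the opposite strand and fell by 0.57 and 0.54 against LFD (adjusted p = 0.000889 and 0.000867), where Rmrp was higher, and both calls were lost after the correction (-0.31 and -0.30, adjusted p = 0.0616 and 0.055). Slc3a2, an amino acid transporter gene that lies 117 bases from Snhg1 on the opposite strand, gave 0.022 ± 0.0449, -0.005 ± 0.0426 and 0.017 ± 0.0442. Zbtb37, 906 bases from Gas5 on the opposite strand, rose by 0.50 and 0.66 against LFD (adjusted p = 0.000976 and 1.55e-05), and corrected values of 0.27 and 0.36 passed in the second alone (adjusted p = 0.0736 for the first). The nearest genes to Terc, Fcgr1 and Hfe2, lie 120467 and 110351 bases away.

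Genes whose log2 CPM followed each RNA most closely over the 9 libraries are given as a description, out of 9976 genes with a mean of at least 10 CPM. Malat1 was followed by Myst4 (Pearson r = 0.999), Fyb and Sema6a, Neat1 by Pam (0.999), Slc6a8 and Crtap, and Rpph1 by Jund (0.997), Plaur and Ncaph2. Rmrp was followed by Il16 (0.991), Clec2d and Nudcd1, and Snhg1 by Snx27 (0.981), Med23 and Nvl. Likeness was lower for Terc (Dok4, 0.959) and Gas5 (Lmf1, 0.942). The 9 points share 3 groups and the GC trend, so r mostly describes steps between groups. Jund has 62.7% GC and Il16 53.6%, beside 66.8% for Rpph1 and 63.6% for Rmrp.

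Markers of cell types moved with the groups too, and their part in the values of the 7 RNAs was not tested. Over all tested genes, an adjusted p under 0.05 called 26.0% higher and 25.8% lower with the diet, and 12.7% and 13.9% with EC359. The summed level of 8 fibroblast markers was 7771 to 9235 CPM in LFD, 13522 to 14266 in HFD and 3996 to 4101 in HFD + EC359, with 8 of 8 tested higher for HFD against LFD and 1 higher and 5 lower for HFD + EC359 against HFD. Leukocyte markers summed to 617 to 666, 972 to 1009.8 and 1244 to 1261 CPM, with 6 and 8 of 9 tested higher in the diet and drug comparisons. Epidermal markers summed to 1122 to 1294, 180.1 to 191 and 536 to 546 CPM, with 7 of 9 lower with the diet and 8 of 9 higher with EC359, and epithelial markers to 1120.2 to 1140.4, 707 to 714 and 765 to 795 CPM, with 5 of 5 lower and 4 of 5 higher. Endothelial markers summed to 210.1 to 222, 382 to 407 and 314 to 332 CPM (6 of 6 higher with the diet, 4 of 6 lower with EC359), adipocyte markers to 19.2 to 22.9, 46.2 to 48.4 and 37.4 to 43.7 CPM (3 of 5 higher, 1 of 5 lower), and muscle markers to 91.7 to 99.3, 114 to 126 and 67.8 to 72.8 CPM (3 of 6 higher, 3 of 6 lower). Defining markers at or near 0 were the adipocyte genes Adipoq (1 to 6 counts), Lep, Retn and Pck1, the B cell gene Cd79a (0 to 6 counts), the epithelial gene Cldn7 (0 to 2 counts) and, of the hormone receptors, Pgr (0 to 11 counts).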

How the data were processed

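RNA was sequenced from 4T1 tumors of 3 groups with 3 libraries each, grouped by their labels. The authors deposited expected counts of read pairs per gene, without normalization. Per the file headers they were made with featureCounts 1.5.0-p1 on mm9, reverse-stranded, at a mapping quality of at least 2, with multi-mapping and overlapping pairs split into fractions. The submitters' processing notes name HISAT2 2.1.0, while the study's methods name TopHat2 and HTSeq, and this difference could not be settled. Between 1.19% and 3.55% of genes per library held fractions, and counts were rounded to whole numbers.

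One edgeR 4.0.16 quasi-likelihood model (R 4.3.3) was fitted over all 9 libraries after filterByExpr, with TMM factors and Benjamini-Hochberg adjustment over 13366 genes. Thresholds were a fold change over 2 with an adjusted p under 0.01, after the study's methods, and an adjusted p under 0.05 for listed genes. CPM and FPKM are TMM-scaled, and log2 CPM used a prior count of 2. GC content and sequences came from the mm9 genome, with GC for 22549 genes, and copies were found with blastn 2.17.0. The GC and length trend of log2 CPM was fitted per library with mgcv 1.9.3 and taken out as an offset (the GC and length correction). A count of 0 allows up to 3 counts, or 0.308 to 0.590 CPM by library, for counting error only.

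The 7 RNAs and the 11 partner lists (132 genes tested) were chosen with earlier results of these data known. Genes named by rule are the 7 RNAs, their nearest listed neighbours, the 3 most abundant genes of a list and up to 5 past the fold threshold, the 3 genes most like each RNA, and the highest or absent markers. Some further listed genes were named after their values were seen. Older symbols were matched for 15 genes. Replicate numbers did not pair the libraries: deviations of same-numbered libraries correlated at -0.03 to 0.017. In data simulated for HFD against LFD on 13227 genes, without a GC trend, 191 of 198 tested genes with a planted 3-fold change passed the fold threshold, with 0 false calls. At an adjusted p under 0.05 with no limit on fold change, 195 were found, with 10 false calls. Smaller changes were not simulated. Alternatives were DESeq2 1.42.0, RLE factors, library totals, other filters, the 6 libraries of a comparison, a replicate block, the GC and length correction, and each library left out.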

Additional observations from a re-analysis of the deposited data

How the results depend on the processing

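The GC and length correction turned the most signs among named genes. It turned Malat1 to -0.084, -0.010 and -0.094 (HFD against LFD, HFD + EC359 against HFD, HFD + EC359 against LFD), Kcnq1ot1 to -0.13, -0.16 and -0.29, Gas5 to -0.25, -0.036 and -0.28 and Snhg1 to -0.018, -0.13 and -0.14, Terc to 0.15 for HFD + EC359 against LFD, and, in the comparisons with LFD, Dkc1 to -0.007 and -0.12, Smg1 to -0.11 and -0.025 and Upf1 to 0.067 and 0.081. Acd turned to 0.014 for HFD against LFD. Member medians became -0.084, -0.053 and -0.14, and calls for HFD + EC359 against LFD dropped from 680 to 403. With at least 10 counts in every library, calls past the fold threshold were 356, 211 and 418, against 763, 459 and 680, and at an adjusted p under 0.05 they were 6925, 3549 and 7787. Library totals alone moved the split of the latter for HFD + EC359 against HFD from 1697 higher and 1852 lower to 2094 and 1499.

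Calls in the partner lists for HFD + EC359 against HFD were 25, and 14 with DESeq2. Leaving out one library gave 14 to 32, with 14 without HFD replicate 2 and 15, 15 and 16 without HFD + EC359 replicates 1, 2 and 3. The other ranges were 64 to 73 and 77 to 81 partner genes, 702 to 777, 399 to 497 and 602 to 742 calls, and member medians of 0.005 to 0.128, 0.016 to 0.060 and 0.076 to 0.137. The cause of these changes was not tested. Outside the GC and length correction, Neat1 for HFD + EC359 against HFD ran from -0.050 to 0.000 and Terc for HFD against LFD from -0.073 to 0.13, and the other members kept their sign. The replicate block gave 759, 457 and 676 calls. It changed no call of the 77 called results of partner and neighbour genes named by the rule given above. Of the 1307 repeats of these results, 1214 kept direction and call, 83 lost the call and 10 turned. Further genes named for their values are not in these repeats, among them Tug1, Cpsf6, Matr3, Tardbp and Rpp30, which also turned with the correction. Terc had the fewest counts of the 7 RNAs, 123 to 186 per library, and the largest SE, 0.102 to 0.109.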
